A study of Mus musculus with 12 samples.

Results

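The 32 genes described here encode the transporters and enzymes that bring glucose into a cell, turn it into pyruvate, exchange lactate with the blood, and store or release glycogen. They were chosen by gene symbol, and all 32 had a row in both deposited tables, each of which lists 46983 genes. In each cell fraction 30 of the 32 had a mean normalized read count of 10 or more and were tested. Aldoc and Eno2, the brain-enriched forms of aldolase and enolase, fell below that mean. Nearest to it, the tested Pfkfb1 averaged 11.5 over the non-cardiomyocyte libraries, with 11.4 ± 4.02 in Wls fl/fl hearts and 11.7 ± 4.24 in control hearts (SD, n = 3 each). The untested Eno2 averaged 8.80 over the same libraries, with 13.2 ± 5.61 in Wls fl/fl hearts and 4.43 ± 4.06 in control hearts (SD, n = 3 each).

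RNA was sequenced from mouse hearts of the labelled strain BL6/C57, separated into a non-cardiomyocyte fraction (NonCM, labelled as interstitial cells) and a cardiomyocyte fraction (CM). Wls fl/fl hearts had the genotype MCM/+ Wls fl/fl, with both copies of Wls floxed, and control hearts were MCM/+. Wls carries Wnt proteins to the cell surface for release. Mice of both genotypes carried MCM, received TAM (tamoxifen) in 3 doses from postnatal day 1 to day 3, and underwent myocardial infarction on postnatal day 2. Tissue was taken 2 weeks after surgery, although the labels call both cell sources adult. The labels neither spell out MCM nor name its promoter. There were 3 libraries in each of the 4 groups, and the design text gives 3 hearts per condition without saying which NonCM and CM libraries share a heart.

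The libraries held between 1160146 and 10281214 reads on genes. The shallowest by far was NonCM control replicate 1, in which a single read is worth 5.54 normalized reads. Wls itself had 91.6, 57.3 and 93.9 normalized reads in CM libraries of Wls fl/fl hearts, against 243, 201 and 210.2 in those of control hearts. In NonCM libraries it had 356, 323 and 316 in Wls fl/fl hearts, against 427, 374 and 407 in control hearts. In every group the counts of replicate 3 deviated from a weighted mean of the other 2 by 1.003 to 1.079 times the variance of counting alone. For replicates 1 and 2 that ratio was 1.11 to 1.79. The best weight of replicate 1 in fitting replicate 3 was 0.33 to 0.75, while replicates 1 and 2 were each fitted best by replicate 3 alone. This check does not show how replicate 3 was made, and whether it is an independent library was not tested. Every p-value, SE and SD with all libraries counts it as independent, and some results are also given without it. Nothing in the labels ties libraries to cultures or animals beyond this, so each p-value reflects library-to-library spread, which may be technical.

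The fractions were not pure. The 28 cardiomyocyte markers on the list used here, all of them detected, took 7.28 to 7.57% of reads in NonCM libraries of Wls fl/fl hearts and 8.46 to 9.25% in those of control hearts. In CM libraries they took 12.7 to 13.9% in Wls fl/fl hearts and 12.8 to 13.03% in control hearts. NonCM libraries thus held much cardiomyocyte RNA, and less of it in Wls fl/fl hearts. In these bulk samples fewer cells of a type and less RNA per cell cannot be told apart.

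Glucose enters cells through facilitative transporters of the GLUT family and is trapped by hexokinase. Phosphofructokinase sets the committed step of glycolysis, and lactate dehydrogenase links pyruvate to lactate, which crosses membranes through monocarboxylate transporters. Several steps exist in a form typical of heart or skeletal muscle and in one typical of other tissues. For lactate dehydrogenase the split is less clear. The heart form Ldhb was classed here with the muscle forms, and Ldha, the main form of skeletal muscle, with the other forms. The adult heart mainly burns fatty acids, whereas the newborn heart relies more on glucose and lactate.

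Most of the highest members were muscle forms. Scaled by exon length and library size, as RPKM, muscle enolase Eno3 was the highest of the 30 members given a length, with 427, 378 and 399.9 RPKM in NonCM control libraries and 608, 574 and 590.04 RPKM in CM control libraries. Aldolase Aldoa followed, with means of 374 and 569.8 RPKM in the same NonCM and CM libraries. Heart lactate dehydrogenase Ldhb averaged 280.5 and 415 RPKM, muscle phosphoglycerate mutase Pgam2 258 and 379 RPKM, and muscle phosphofructokinase Pfkm 164 and 259.6 RPKM in them. At the low end, the liver form of the bifunctional phosphofructokinase 2 enzyme, Pfkfb1, had 0.442 and 0.498 RPKM. Exon length was the union over all annotated transcripts, so genes with many rare exons are set too low on this scale.

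Of each pair, the muscle form held nearly all of the RPKM for some proteins and a part of it for others. In CM control libraries Slc2a4, the insulin-responsive GLUT4, made up 98.4 ± 0.246% of the summed RPKM of itself and Slc2a1 (GLUT1), Pgam2 99.1 ± 0.220% of itself and Pgam1, and Eno3 99.0 ± 0.0800% of itself and Eno1 (SD, n = 3). Hexokinase 2 (Hk2) made up 63.6 ± 2.09% with Hk1, and Ldhb 76.5 ± 0.567% with Ldha, the form favoured by tissues that release lactate. Muscle glycogen phosphorylase Pygm made up only 44.8 ± 0.473% with Pygb, the brain form, so the brain form was the more abundant per length. Pfkfb2, the heart form of the enzyme that makes and removes fructose 2,6-bisphosphate, made up 34.7 ± 2.87% with Pfkfb3 in NonCM control libraries and 74.4 ± 4.17% in CM control libraries, the only one of the 12 pairs whose order turned between fractions.

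Most members were lower in the NonCM than in the CM fraction of control hearts. In a joint edgeR quasi-likelihood fit of all 12 libraries, 24 of 30 were lower and 4 higher, with adjusted p under 0.05, where 28.2% of all 13131 genes tested were lower and 28.7% higher. The median of the members was -0.75 on the log2 scale (NonCM minus CM), and that of all genes -0.003. All 28 cardiomyocyte markers were lower as well, with a median of -0.86. The 8 muscle forms were all lower, with a median of -0.87, and the 9 other forms tested had a median of -0.42. Scaling by library totals moved the median of all genes to 0.24 and that of the members to -0.50, and Pfkl, Pfkp and Eno1 then lost their calls.

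The 4 members that were higher in NonCM have other roles. Pfkfb3, the inducible form of the same bifunctional enzyme, had 5.47, 7.67 and 5.85 RPKM in NonCM control libraries, against 1.60, 2.25 and 2.21 in CM control libraries. Its log2 difference was 1.48 ± 0.13 (SE, adjusted p = 1.31e-08 by edgeR). Slc16a3, the monocarboxylate transporter MCT4 of lactate-exporting cells, had 0.810, 1.20 and 1.16 RPKM in NonCM, against 0.456, 0.473 and 0.404 in CM. Its difference was 1.13 ± 0.24 (adjusted p = 4.01e-04). Slc2a1, the ubiquitous GLUT1, had 1.72, 2.51 and 2.22 RPKM in NonCM, against 1.059, 1.54 and 1.40 in CM, a difference of 0.56 ± 0.23 (adjusted p = 0.0438). The Slc2a1 call was lost with DESeq2 (0.53), without replicate 3 of all groups (0.65) and without CM control replicate 1 (0.42) or 3 (0.61) or NonCM control replicate 2 (0.45) or 3 (0.62). The row named Pgm1, for phosphoglucomutase, had 9.71 ± 0.999 reads scaled to library size (RPM) in NonCM and 4.42 ± 0.0509 in CM (difference 0.96 ± 0.17, adjusted p = 7.67e-05). The names Pgm1 and Pgm2 have been exchanged between annotation releases, so which gene these rows hold is uncertain.

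**Figure D1:**
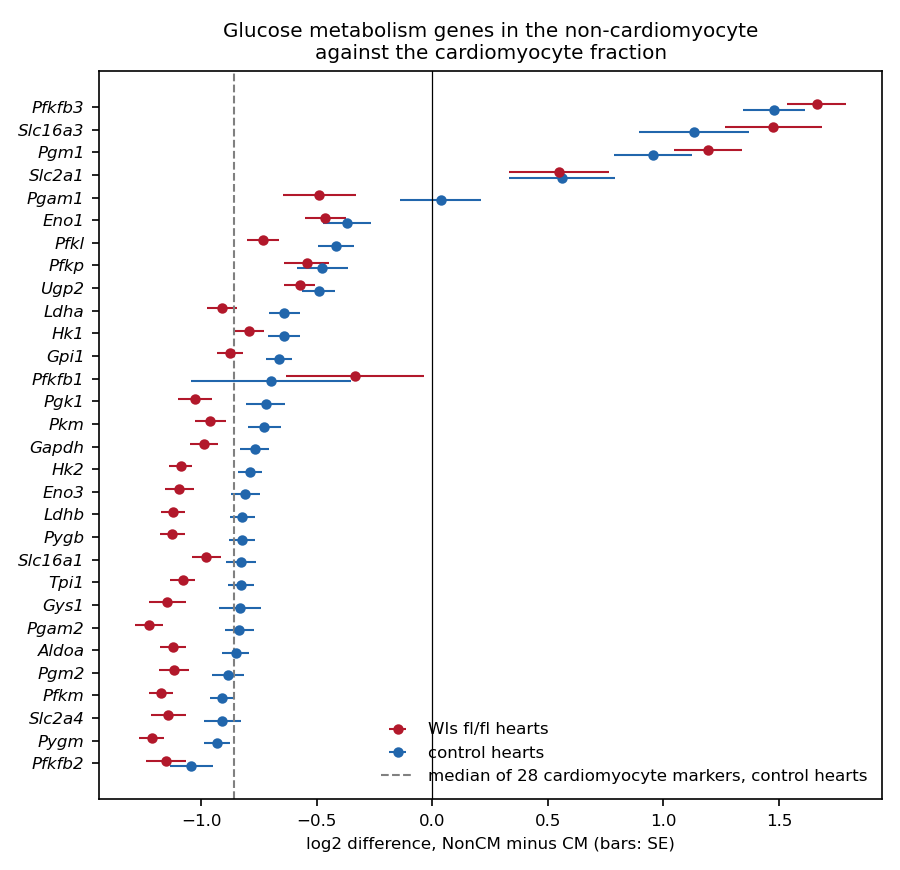
Log2 difference, NonCM minus CM, of 30 members in Wls fl/fl hearts (red) and control hearts (blue), with SE bars from the joint edgeR fit. Pfkfb3, Slc16a3, Pgm1 and Slc2a1 lie to the right of 0, and most others lie near the dashed line at the cardiomyocyte marker median of -0.86 in control hearts.

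Promoter windows are shown for a pair of muscle forms that were lower in NonCM and for Pfkfb3 and Slc16a3, the members with the largest excess there, as examples of each direction. The windows come from RefSeq (GRCm38.p6), 5′ to 3′ on the gene's strand: Pgam2 chr11:5803747-5804046 (minus), Ldhb chr6:142507908-142508207 (minus), Pfkfb3 chr2:11553880-11554179 (minus, 1 of 2 starts) and Slc16a3 chr11:120948817-120949116 (plus). Capitals mark ACGTG, the core letters of the hypoxia response element, on either strand, and in Pgam2 a match to the MEF2 motif, named for a muscle transcription factor family.
Pgam2: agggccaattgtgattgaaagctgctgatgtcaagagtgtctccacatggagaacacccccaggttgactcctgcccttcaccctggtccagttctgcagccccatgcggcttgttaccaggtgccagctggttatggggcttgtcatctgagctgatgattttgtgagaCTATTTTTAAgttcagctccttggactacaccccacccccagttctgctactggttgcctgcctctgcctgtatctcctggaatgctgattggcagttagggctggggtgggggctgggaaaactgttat
Ldhb: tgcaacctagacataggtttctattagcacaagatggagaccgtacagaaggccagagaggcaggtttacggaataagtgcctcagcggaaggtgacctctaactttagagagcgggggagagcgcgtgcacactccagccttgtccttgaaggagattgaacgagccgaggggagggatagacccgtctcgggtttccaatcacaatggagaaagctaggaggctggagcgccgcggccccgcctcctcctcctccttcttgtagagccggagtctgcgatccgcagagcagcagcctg
Pfkfb3: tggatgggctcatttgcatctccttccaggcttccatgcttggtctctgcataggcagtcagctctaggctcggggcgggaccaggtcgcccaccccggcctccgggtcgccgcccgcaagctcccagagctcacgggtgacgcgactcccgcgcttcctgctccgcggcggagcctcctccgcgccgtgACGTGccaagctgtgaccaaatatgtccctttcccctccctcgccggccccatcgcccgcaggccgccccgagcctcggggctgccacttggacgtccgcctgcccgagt
Slc16a3: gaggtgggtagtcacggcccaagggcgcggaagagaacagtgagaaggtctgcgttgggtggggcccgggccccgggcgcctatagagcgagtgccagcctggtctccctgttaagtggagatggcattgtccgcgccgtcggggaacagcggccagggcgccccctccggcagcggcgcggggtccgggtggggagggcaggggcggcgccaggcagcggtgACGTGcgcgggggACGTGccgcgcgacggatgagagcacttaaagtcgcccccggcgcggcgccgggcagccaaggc
Over 47 windows of 29 members, 46.8% held ACGTG, against 19.6% of all 32851 promoter windows of the same length. That background was not matched for base composition. Some windows of a gene overlap, as in Aldoa, where the same ACGTG is counted more than once. CACGTG reads the same on both strands and counts as a match on each. Both muscle forms printed lack ACGTG, but 6 of 12 windows of muscle forms held it, those of Hk2 and Pygm and some of Pfkm and Pfkfb2, as did 8 of 17 windows of other forms. All 4 windows of Pfkfb3, Slc16a3 and Slc2a1 held it too. The letters GGGCGG, read on both strands, stood in 51.1% of the members' 47 windows and 35.7% of all windows. They stood in 16.7% of 12 windows of muscle forms and 58.8% of 17 windows of other forms. The MEF2 motif stood in 2 windows, those of Pgam2 and Pfkfb1, or 4.26% of the members' windows against 3.19% of all. A match is a run of letters and not a measured binding site.

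In the NonCM fraction, 7 of 30 members were lower in Wls fl/fl than in control hearts and 0 were higher by limma, with adjusted p under 0.05. Of all 13271 genes tested, 2.03% were lower and 2.47% higher. The changes were small, between -0.19 and -0.29 on the log2 scale. The members' median difference was -0.15, against 0.02 over all genes, and 4 of 30 lay above 0, as did 53.2% of all genes. Muscle forms made up 5 of the 7 (Pfkm, Pgam2, Eno3, Ldhb and Pygm, of 8 tested), 1 was another form (Pygb, of 9), and 1 was Gpi1, of 13 members without such a class. Unadjusted, 16 of 30 had p under 0.05, as had 19.3% of all genes. edgeR on recovered reads called 9 members lower (5.16% of all genes), the same 7 with Slc16a1 and Pgm2. DESeq2 called 6 lower (3.71%), those 7 without Gpi1.

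The calls rested on few libraries. With replicate 3 of both genotypes left out, 0 members were called by limma, 6 had an unadjusted p under 0.05, and 0 of all genes were called. The differences of the 7 members were then -0.19 to -0.29, the same range as with all libraries. Leaving out replicate 3 can move them little if it lies near a weighted mean of the other 2. Leaving out a single library gave between 0 and 11 called members. There were 0 without control replicate 3 or without Wls fl/fl replicate 2 or 3, 2 without Wls fl/fl replicate 1, and 11 without control replicate 1. The calls over all genes changed as well, from 598 with all libraries to 119 without control replicate 3. They were 101 and 73 without Wls fl/fl replicates 2 and 3, 335 without Wls fl/fl replicate 1, and 1621 without control replicate 1. Of the 28 cardiomyocyte markers, 20 were lower in the same test (all 28 below 0, median -0.27, against -0.15 for the members). With the mean of those markers as a covariate 0 members and 0 of all genes were called and 4 members had an unadjusted p under 0.05. The differences did not all shrink alike in that fit: Eno3 was -0.18 and Pfkm -0.14, while Gpi1, Pygm and Pygb were each -0.02, Ldhb 0.05 and Pgam2 0.10. The genotypes did not overlap for 26 of the 28 markers, nor for the markers' summed share of reads. The marker and genotype terms therefore cannot be told apart in that fit.

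At the upper steps, Gpi1, the isomerase that makes fructose 6-phosphate, had 1464, 1424 and 1365 normalized reads in NonCM libraries of Wls fl/fl hearts, against 1696, 1621 and 1608 in control hearts (log2 difference -0.21 ± 0.05 SE, adjusted p = 0.0473). It lies on chromosome 7 from 34201330 to 34230336 and overlaps the long noncoding gene Gm26762 on the other strand. Pfkm, on chromosome 15 from 98092589 to 98132451, had 3188, 3118 and 3149 in Wls fl/fl libraries, against 3631, 3601 and 3733 in control libraries (-0.21 ± 0.04, adjusted p = 0.0262). It overlaps Senp1 on the other strand, and whether reads were counted by strand is not given in the sources used here. Neither gene's genotypes overlapped.

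At the lower steps, Pgam2, on chromosome 11 from 5801640 to 5803733, had 1226, 1171 and 1180.1 normalized reads in Wls fl/fl NonCM libraries, against 1558, 1378 and 1377 in control libraries (-0.27 ± 0.06, adjusted p = 0.0413). Eno3, on the same chromosome from 70657202 to 70662513, had 3981, 4146 and 4087 in Wls fl/fl libraries, against 4773, 4489 and 4665 in control libraries (-0.19 ± 0.04, adjusted p = 0.0484). Ldhb, on chromosome 6 from 142490249 to 142507957, had 2525, 2319 and 2413 in Wls fl/fl libraries, against 3038, 2887 and 2859.9 in control libraries (-0.28 ± 0.05, adjusted p = 0.0205). All 3 were lower in every Wls fl/fl library than in any control library.

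The muscle and brain forms of glycogen phosphorylase, which releases glucose 1-phosphate from glycogen, fell. Pygm, on chromosome 19 from 6384399 to 6398459, had 1592, 1547 and 1513 normalized reads in Wls fl/fl NonCM libraries, against 1857, 1747 and 1855 in control libraries (-0.23 ± 0.05, adjusted p = 0.0330). Pygb, on chromosome 2 from 150786735 to 150831758, had 3157, 2760.3 and 2936 in Wls fl/fl libraries, against 3476, 3638 and 3677 in control libraries (-0.29 ± 0.06, adjusted p = 0.0269). The liver form Pygl, which is not among the 32, had 96.7, 98.5 and 75.5 in Wls fl/fl libraries, against 66.5, 66.4 and 78.9 in control libraries (0.34 ± 0.15, adjusted p = 0.246), so its genotypes overlapped and it did not pass the test. Gys1, glycogen synthase, did not pass the test (-0.02 ± 0.12, adjusted p = 0.935), nor did Ugp2, which makes its substrate UDP-glucose (-0.02 ± 0.07, adjusted p = 0.930).

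**Figure D2:**
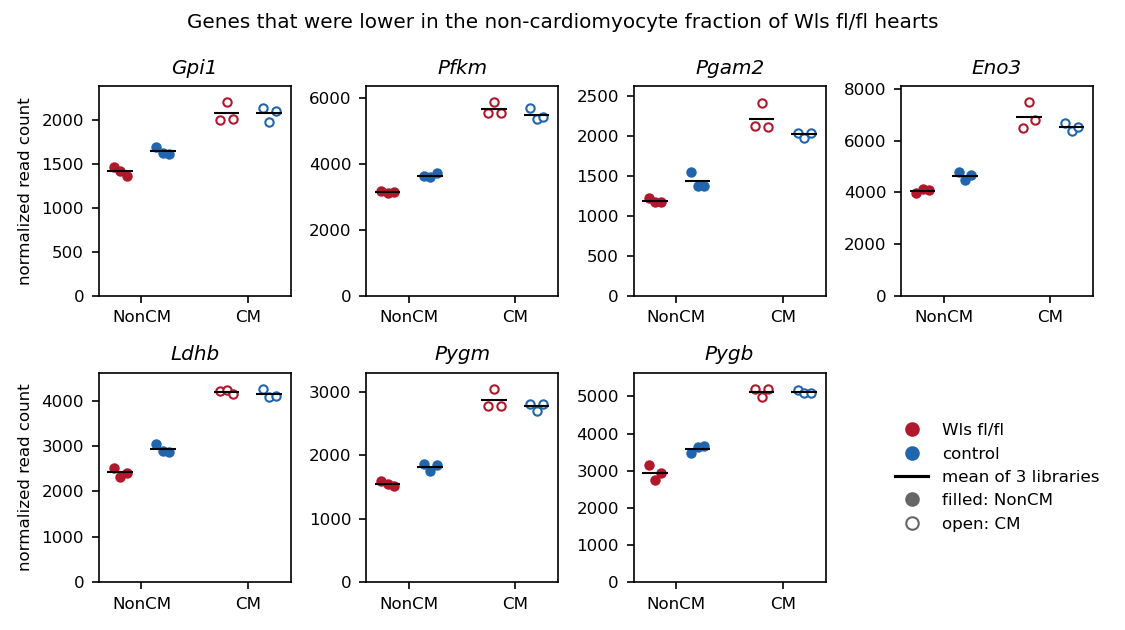
Normalized read counts of the 7 members that were lower in NonCM libraries of Wls fl/fl hearts, in each of the 12 libraries, with group means. The red NonCM points lie below the blue ones in all 7 panels, while in CM the genotypes overlap in every panel except that of Pgam2, where the Wls fl/fl points lie above, and the 2 fractions were scaled separately.

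The members that did not pass the test in NonCM spanned -0.29 (Pgam1, adjusted p = 0.355) to 0.41 (Slc16a3, adjusted p = 0.361). Counting called and uncalled members, 12 of 30 had non-overlapping genotypes with Wls fl/fl lower and 3 with Wls fl/fl higher, where 12.6% and 13.9% of all genes did so. The 3 higher ones were Pfkp, the platelet form of phosphofructokinase (0.27 ± 0.09, adjusted p = 0.135), the ubiquitous enolase Eno1 (0.26 ± 0.09, adjusted p = 0.155) and the Pgm1 row (0.34 ± 0.14, adjusted p = 0.235). All 17 members with a mean of 1000 or more lay below 0, including glyceraldehyde 3-phosphate dehydrogenase Gapdh (-0.05 ± 0.06, adjusted p = 0.669) and pyruvate kinase Pkm (-0.14 ± 0.05, adjusted p = 0.167). The share of all genes with such a mean that lay below 0 was not computed, and all 28 cardiomyocyte markers lay below 0 too. Slc2a1 and Slc2a4, the glucose transporters, differed by -0.12 ± 0.24 and -0.15 ± 0.09 (adjusted p = 0.825 and 0.412).

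Set against the summed reads of the cardiomyocyte markers, the members' summed reads lay higher in Wls fl/fl hearts in both fractions. For each 100 reads on the 28 cardiomyocyte markers, the 32 members had 8.34 to 8.38 reads in NonCM libraries of Wls fl/fl hearts and 7.60 to 7.87 in those of control hearts. For the 8 muscle forms alone these values were 2.97 to 3.07 in Wls fl/fl hearts and 2.88 to 2.94 in control hearts. In CM libraries the 32 members had 7.80 to 7.96 reads in Wls fl/fl hearts and 7.52 to 7.74 in control hearts, again without overlap. The other forms overlapped there, with 1.25 to 1.36 in Wls fl/fl hearts and 1.27 to 1.29 in control hearts, while the remaining members did not. A ratio of sums is set mostly by the highest genes. By gene, the limma medians of members and markers were both 0.07 in CM, and -0.15 and -0.27 in NonCM. As a share of all reads the 32 members took 0.620 ± 0.0114% in Wls fl/fl and 0.680 ± 0.0233% in control NonCM libraries (SD, n = 3 each). Of 12 fibroblast markers 8 rose in the same libraries by limma, and the list took 1.78 to 1.89% of reads in Wls fl/fl hearts and 1.28 to 1.33% in control hearts. Of 12 macrophage markers 2 rose, and together they took 0.201 to 0.213% in Wls fl/fl hearts and 0.140 to 0.175% in control hearts. Of 12 endothelial and 9 smooth muscle and pericyte markers tested, 1 each was lower, and of 6 red cell markers 0 were called (0 also by edgeR and DESeq2, and 0 at an unadjusted p under 0.05). The per-marker ratio was chosen after the data had been seen and has no test.

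**Figure D3:**
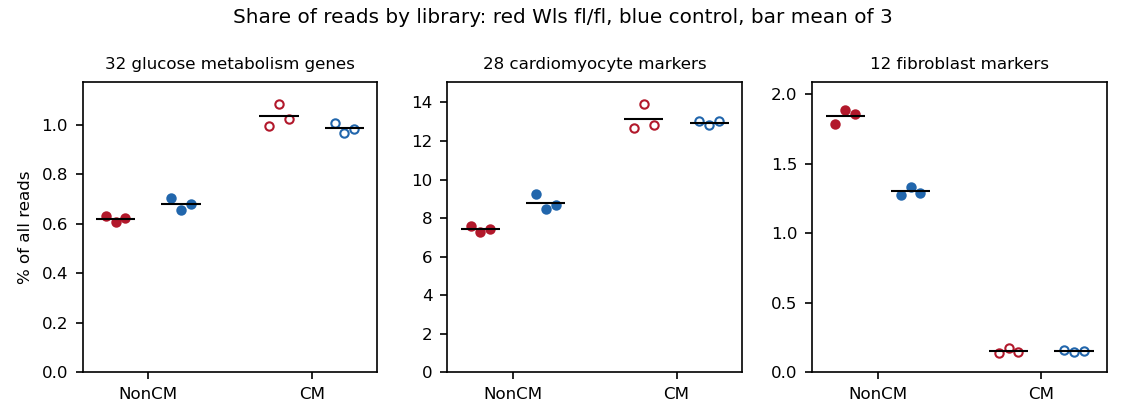
Percent of all reads on the 32 members, the 28 cardiomyocyte markers and the 12 fibroblast markers, by library, with Wls fl/fl in red, control in blue and group means as bars. In NonCM libraries the members and the cardiomyocyte markers are both lower in Wls fl/fl hearts and the fibroblast markers higher.

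In the CM fraction, where Wls itself was lower in Wls fl/fl hearts by limma (-1.45 ± 0.17 SE, adjusted p = 0.00389), no member passed the test. By limma 0 of 30 were called, where 0.0921% of all 11944 genes tested were. By edgeR 0 members were called as well (0.1% of all genes), as by DESeq2 (0.285%). Unadjusted, 10 of 30 had p under 0.05 by limma, as had 8.74% of all genes. Differences lay between -0.30 (Pfkfb3, adjusted p = 0.628) and 0.32 (Eno1, adjusted p = 0.410), and the 95% interval lay within 0.25 of 0 for 16 of 30 members. The median was 0.07, against 0.00 over all genes, with 22 of 30 above 0 where 50.1% of all genes were. Wls fl/fl libraries lay above control libraries without overlap for 7 members (Hk2, Pfkl, Aldoa, Tpi1, Pgk1, Pgam2 and Eno1) and below them for 0, where 7.97% and 7.05% of all genes did so.

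Pfkl, the phosphofructokinase of liver, had the lowest p of the members in CM. It had 641, 691 and 656 normalized reads in CM libraries of Wls fl/fl hearts, against 531, 552 and 564 in control hearts (0.27 ± 0.06, adjusted p = 0.197). Phosphoglycerate kinase Pgk1 had 476, 561 and 516 in Wls fl/fl libraries, against 417, 441 and 439.8 in control libraries (0.26 ± 0.07, adjusted p = 0.399). Of the 7 members called in NonCM, 6 had overlapping genotypes here, with differences from -0.00 ± 0.05 (Gpi1, adjusted p = 0.998) to 0.08 ± 0.05 (Eno3, adjusted p = 0.690). The other, Pgam2, lay above control in every Wls fl/fl library (0.13 ± 0.06, adjusted p = 0.553). Cardiomyocyte markers in CM had 0 calls of 28 and a median of 0.07.

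**Figure D4:**
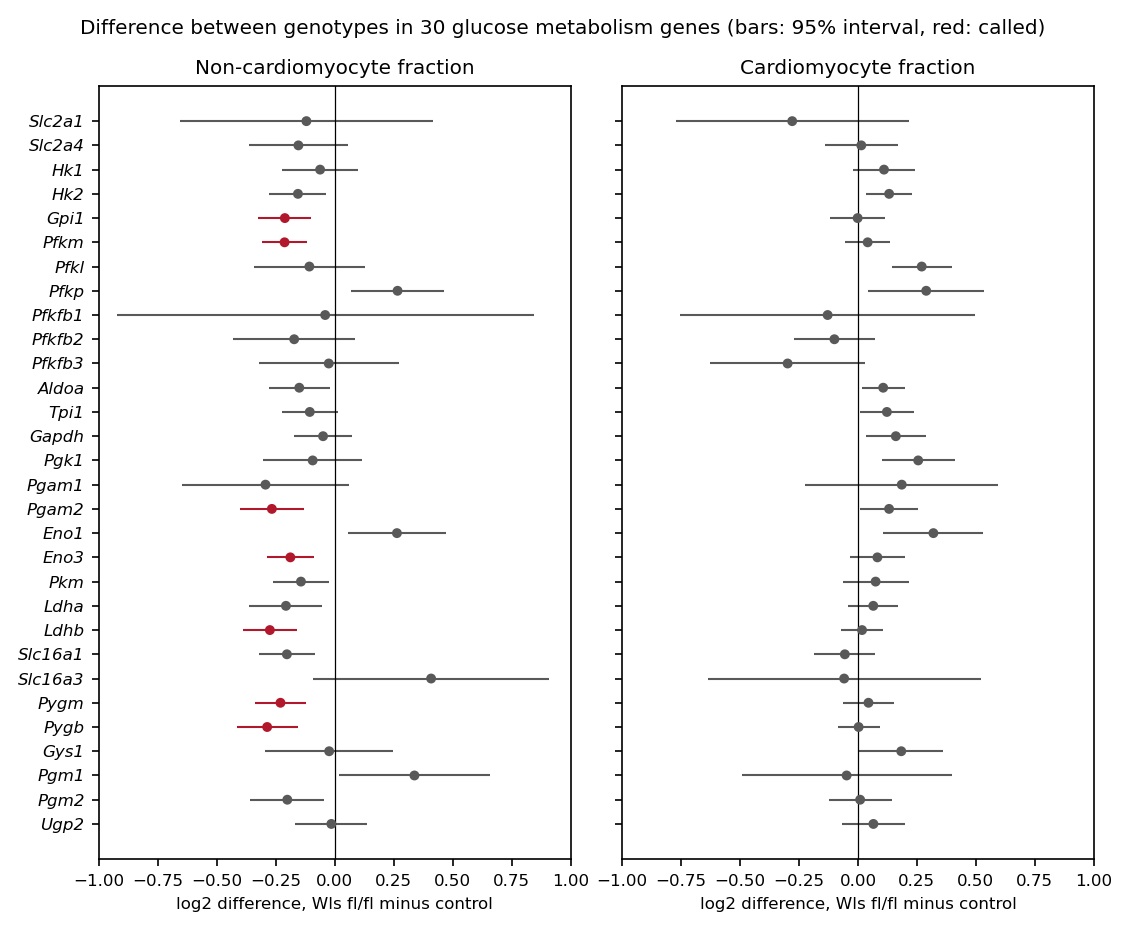
Log2 difference, Wls fl/fl minus control, of the 30 tested members with 95% intervals from limma, in the NonCM (left) and CM (right) fraction. Red marks the 7 members with adjusted p under 0.05, all in NonCM and below 0, while 22 of 30 CM values lie above 0.

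The effect of genotype differed between the fractions for 2 members with adjusted p under 0.05. Over all 30 members the median difference of the log2 effects, NonCM minus CM, was -0.23, against -0.01 over all genes. In the joint edgeR fit, the interaction was called lower in NonCM for 2 of 30 members and higher for 0, where 1.07% of all genes were called lower. Hk2, which phosphorylates glucose in insulin-sensitive tissue, had 1081, 980.7 and 1032 normalized reads in NonCM libraries of Wls fl/fl hearts, against 1131, 1148 and 1168 in control hearts. In CM libraries it had 1761, 1770.4 and 1712 in Wls fl/fl hearts, against 1625, 1559 and 1601 in control hearts. The genotypes did not overlap in either fraction, and the difference between the fractions was -0.30 ± 0.07 (adjusted p = 0.0424). Within a fraction Hk2 did not pass the limma test (adjusted p = 0.146 in NonCM and 0.446 in CM). Pgam2 in CM had 2128, 2417.5 and 2119 in Wls fl/fl libraries, against 2042, 1983 and 2045 in control libraries, and its difference between the fractions was -0.39 ± 0.09 (adjusted p = 0.0361). Among the members, 19 of 30 had an unadjusted p under 0.05 where 14% of all genes did, and 18 of 28 cardiomyocyte markers were called in the same direction (median -0.32). With library totals 0 members were called and 13 had an unadjusted p under 0.05. Without replicate 3 of all groups these counts were 0 and 5, and with DESeq2 9 were called. Calls over all genes were 186 in the main fit, 40 with library totals, 1 without replicate 3 of all groups and 364 with DESeq2. With no filter on low values Pgam2 was called but Hk2 was not. Leaving out a single library gave 0 member calls for 9 of the 12 libraries, with 0 to 138 calls over all genes. Without CM Wls fl/fl replicate 1, 1 member was called, Pgam2 (109 of all genes). Without NonCM control replicate 2 there were 2, Pgam2 and Pygm (215 of all genes). Without NonCM Wls fl/fl replicate 1 there were 5, among them Hk2 and Pgam2 (266 of all genes). Hk2 kept its call only in this last run.

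Ratios of 2 forms were taken within each library, on the log2 scale, after adding a pseudocount of 1 to both values. Of 12 such ratios, 4 had genotypes that did not overlap in NonCM and 2 in CM. Without any effect of genotype, a ratio has a probability of 0.1 of not overlapping. Eno3 and Pfkm each stand in more than 1 pair, so the counts are not independent. No share over other gene pairs was computed. With 3 libraries against 3 the exact permutation test cannot go below p = 0.1, and each of these reached that value (adjusted p = 0.300 in NonCM and 0.480 in CM). The ratio of Eno3 to Eno1 was lower in both fractions, by 0.45 in NonCM and 0.24 in CM on the log2 scale. Its values in NonCM were 4.29, 4.12 and 4.12 in Wls fl/fl hearts, against 4.74, 4.50 and 4.63 in control hearts. In CM they were 4.85, 4.75 and 4.82 in Wls fl/fl hearts, against 5.03, 4.94 and 5.18 in control hearts.

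Eno1 had 203, 238 and 234 normalized reads in NonCM libraries of Wls fl/fl hearts, against 177, 197 and 187 in control hearts. In CM it had 223, 276 and 240.1 in Wls fl/fl libraries, against 204, 207 and 179 in control libraries. A near-identical gene, Eno1b, had mean values of 33.8 in NonCM and 33.9 in CM, and reads could be split between the copies. In CM, Eno3 and Eno1 differed between genotypes by 0.08 ± 0.05 and 0.32 ± 0.10 (adjusted p = 0.690 and 0.410 by limma).

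The ratio of Pfkm to Pfkp in NonCM was 2.82, 2.51 and 2.58 in Wls fl/fl hearts, against 3.22, 3.01 and 3.11 in control hearts, a difference of -0.48. Pfkp had 451, 547 and 525 normalized reads in those Wls fl/fl libraries, against 388, 445 and 431 in control libraries. The ratio of Slc16a1 (MCT1, a lactate importer of heart) to Slc16a3 (MCT4) in NonCM was 5.48, 5.10 and 4.94 in Wls fl/fl hearts, against 6.25, 5.50 and 5.61 in control hearts, a difference of -0.61. Slc16a1 had 1893, 1744 and 1799 normalized reads there in Wls fl/fl libraries, against 2179, 2012 and 2070.5 in control libraries. Slc16a3 had 41.3, 49.9 and 57.5 in Wls fl/fl libraries, against 27.7, 43.5 and 41.3 in control libraries. The fourth, Eno3 over Eno2, rested on Eno2 counts of 8.27, 19.3 and 11.96 in Wls fl/fl libraries, against 0, 5.34 and 7.97 in control libraries, so the pseudocount sets its ratio in the library at 0. In CM the other was Pfkm over Pfkl, at 3.11, 3.09 and 3.08 in Wls fl/fl hearts and 3.42, 3.28 and 3.27 in control hearts (difference -0.23). The remaining pairs overlapped, among them Ldhb over Ldha (-0.07 in NonCM and -0.05 in CM), Pygm over Pygb (0.06 and 0.04) and Hk2 over Hk1 (-0.09 and 0.02).

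**Figure D5:**
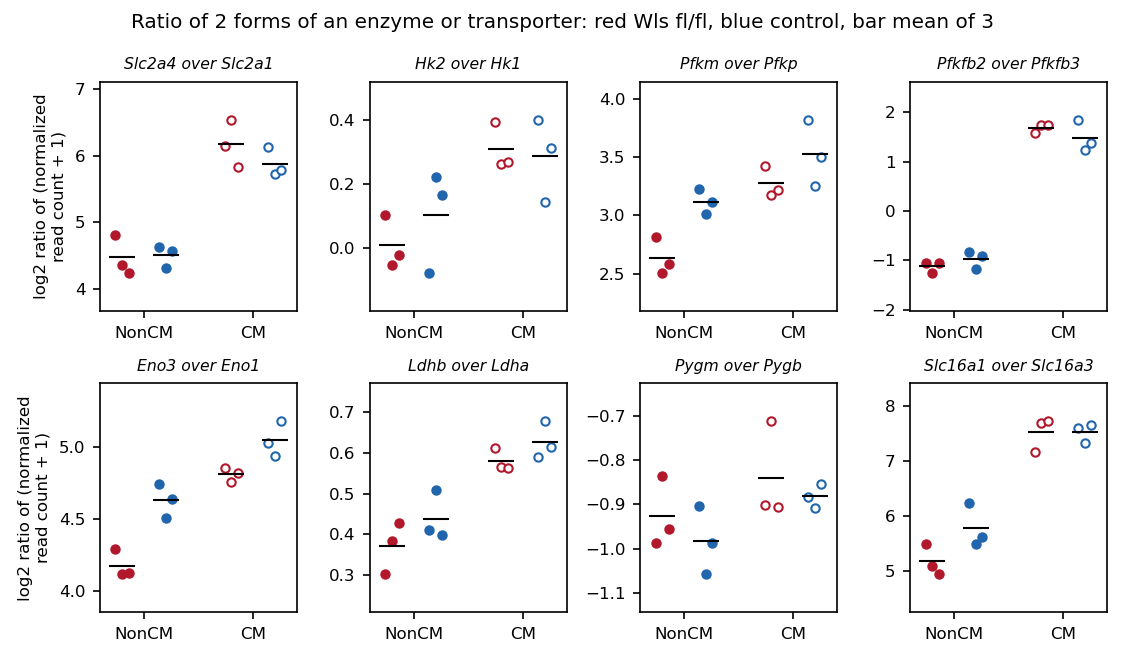
Log2 ratio of normalized read counts, with 1 added to each, of 2 forms of an enzyme or transporter in each library, with group means as bars. In NonCM the ratios of Pfkm to Pfkp, Eno3 to Eno1 and Slc16a1 to Slc16a3 are lower in all 3 Wls fl/fl libraries, and of the group means only those of Pfkfb2 over Pfkfb3 change sign between fractions.

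In lists of related genes outside the 32, limma called 0 to 2 genes a list in NonCM, where 2.03% of all genes were lower and 2.47% higher. Among other glucose transporters and glycolytic enzymes 1 of 15 tested in NonCM was lower, Bsg, the chaperone of monocarboxylate transporters (-0.21 ± 0.05, adjusted p = 0.0371). Of glycogen enzymes and regulators 1 of 19 was lower, Gyg, the glycogenin that primes glycogen (-0.30 ± 0.06, adjusted p = 0.0271). Of insulin and glucose uptake genes 2 of 17 were lower, the insulin receptor Insr (-0.27 ± 0.05, adjusted p = 0.0169) and the AMP-activated kinase subunit Prkaa2 (-0.34 ± 0.07, adjusted p = 0.0270). Of hypoxia response genes outside glycolysis 1 of 18 was lower, the pyruvate dehydrogenase kinase Pdk1 (-0.38 ± 0.07, adjusted p = 0.0219). None of the 8 pentose phosphate genes tested was called by limma, and 2 had an unadjusted p under 0.05. In the same order of lists edgeR called 3, 3, 3, 5 and 1 genes, all lower except P4ha1 of the hypoxia list and the pentose phosphate gene G6pdx, where 5.16% of all genes were lower and 5.73% higher. DESeq2 called 1, 1, 2, 2 and 0, all lower. No gene of these 5 lists was called higher in NonCM by limma, and none was called in CM by limma, edgeR or DESeq2. Unadjusted, 1 of 11, 2 of 19, 2 of 17, 3 of 18 and 0 of 8 genes of those lists had p under 0.05 in CM.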

How the data were processed

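Each library took its group from the labelled genotype and cell fraction. The submitters' processing notes name STAR, DESeq2 and mm10 without versions, and no source used here gives the counting tool, annotation or strand setting. The deposited signal values are the authors' normalized read counts, scaled within each fraction. 100% were whole multiples of 1 read (tolerance 0.01 reads), so reads were recovered. Per the file headers, the tables also hold the authors' log2 fold changes, a Wald score, p-values and adjusted p-values. The authors' deposited adjusted p-values called 6 of the 28 members that have one in NonCM, all lower, and 0 of 28 in CM. The share of all genes called by those deposited values was not computed, so these counts have no background.

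Genotypes were compared within each fraction with limma 3.58.1 (R 4.3.3) on log2(value + 1), for genes with a mean of 10 or more, with Benjamini-Hochberg adjustment over all of them and a threshold of 0.05. Fractions and the interaction were tested in 1 edgeR 4.0.16 quasi-likelihood fit with TMM scaling. DESeq2 1.42.0 and edgeR within fractions were alternatives. Fold changes on the log2(value + 1) scale understate those of low genes. Each isoform ratio was tested by a two-sided exact permutation test, adjusted over 12 pairs. Levels per length used GENCODE M21 exons. The methods were run on simulated data with independent libraries and with interactions larger than those called here. Those runs do not bear on replicate 3 or on calls of this size. No interval for counting error is given for single libraries, and sequencing reads without molecular identifiers are not independent molecules. The members, gene lists and markers were chosen with earlier results of these data known. All 32 members are accounted for, and values by library are printed for each member called in either fraction or by the interaction, and for both genes of a described pair. Up to 4 called genes of each neighbouring list are named, and further values by library (Pfkl, Pgk1, Pfkfb3, Slc2a1) were added after the data were seen.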

Additional observations from a re-analysis of the deposited data

Results flagged for a closer look

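Hk2 and Pgam2 were flagged because the effect of genotype differed between the fractions in a direct test with adjusted p under 0.05. The size of the difference was not particular to them. Its median over the 30 members tested was -0.23, with 4 members above 0. Pgam1 (-0.53), Pfkl (-0.32) and Pygb (-0.30) were not called. For Hk2 the difference of the log2 effects, NonCM minus CM, was -0.30 (adjusted p = 0.0424 by edgeR over all 13131 genes tested), and Wls fl/fl libraries were lower than control libraries in NonCM and higher in CM without overlap. For Pgam2 it was -0.39 (adjusted p = 0.0361), with the same pattern. Leaving out replicate 3 of all groups gave -0.31 for Hk2 and -0.47 for Pgam2, neither of them called (the lowest adjusted p of any member was 0.714). The cardiomyocyte markers differed between the fractions in the same direction, with a median of -0.32. Their part in these results was not tested.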

How the results depend on the processing

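No paired analysis was possible because the replicate numbers follow accession order only and the labels do not tie NonCM and CM libraries to hearts. In CM, 0 members were called under every alternative run. In NonCM the 7 members called lower became 3 with no filter on low values and 0 with replicate 3 of both genotypes left out. They became 0 with the cardiomyocyte marker covariate, and 0 to 11 when each library was left out. Calls over all genes, 598 in the main fit, were 565, 0, 0 and 73 to 1621 in that order. TMM scaling and pseudocounts of 0.5 and 5 kept the same 7, and upper-quartile scaling kept 6, without Eno3 (adjusted p = 0.0576 by limma). The covariate turned the difference of Pgam2 to 0.10, of Ldhb to 0.049 and of Hk2 to 0.069, while Eno3 was -0.18 and Pfkm -0.14. In CM, values near 0 changed sign: Gpi1 was 0.030 with replicate 3 of both genotypes left out (-0.048 to 0.025 over single libraries left out), Pygm was -0.00621 with the covariate, and Pygb was -0.0059 with upper-quartile scaling and -0.012 with replicate 3 left out (-0.00775 to 0.023 over single libraries left out). Non-overlapping ratios in CM were 4 of 12 with replicate 3 left out. With single libraries left out they ranged over 2 to 5 in CM and over 4 to 7 in NonCM. With fewer libraries, non-overlap without any effect of genotype is more likely than the 0.1 of 3 libraries against 3. Higher counts in these runs therefore do not show a clearer separation. Interaction calls of members were 0 with library totals, 9 with DESeq2, 0 with replicate 3 of all groups left out and 0 to 5 with single libraries left out. Over all genes, where the main fit called 186, they were 40, 364, 1 and 0 to 266 in that order. Between fractions, Pgam1 (0.04) was -0.13 without CM control replicate 1 and -0.041 without NonCM control replicate 2 (-0.13 to 0.25 over single libraries left out). The cause of these changes was not tested. The shallow NonCM control replicate 1 limits low genes such as Slc16a3 and Eno2.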
